A study of Mus musculus with 3 samples.

Results

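The genes described are Toll-like receptors, with the adaptor Myd88 listed beside them, chosen by gene symbol in the platform's probe table. Of 10 genes listed, 9 receptors (Tlr1, Tlr2, Tlr3, Tlr4, Tlr6, Tlr7, Tlr8, Tlr9 and Tlr13) had a named probe, 1 each, out of 17742 named genes on the arrays. Myd88 was not analysed here. The cultured cells were a myeloid leukaemia from bone marrow of BXH-2 mice. The sensitive group was 2 arrays of the parental line B117P, and the resistant group was 1 array of its descendant B117HS, selected over about 10 weeks in increasing amounts of cytarabine (Ara-C). Cytarabine is a nucleoside analogue that blocks DNA synthesis, and the labels put the IC50 of B117HS at about 10 times that of its parent. Each group is therefore 1 line, and what differs between the lines need not follow from the drug. The question put to these genes is which of them differ in transcript between the resistant line and its parent.

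Toll-like receptors are membrane proteins of myeloid and other immune cells that bind parts of microbes through leucine-rich repeats and signal through a cytoplasmic TIR domain. Tlr1, Tlr2, Tlr4 and Tlr6 sit at the cell surface and read lipopeptides and lipopolysaccharide, whereas Tlr3, Tlr7, Tlr8, Tlr9 and Tlr13 sit in endosomes and read nucleic acids. Nearly all signal through Myd88 to NF-kB and interferon regulatory factors, while Tlr3 uses the adaptor Ticam1 and Tlr4 uses both routes. BXH-2 is a recombinant inbred strain of C57BL/6J and C3H/HeJ, and C3H/HeJ carries an inactivating Tlr4 mutation. Which Tlr4 allele these lines carry was not examined here, and an array probe measures the transcript whatever its function. BXH-2 mice are also known for an Irf8 mutation that expands their myeloid cells.

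Receptors moved in different directions. Tlr7 and Tlr2 were lower in the resistant cells, Tlr4 was higher, Tlr13 was lower on the deposited scale, and Tlr1, Tlr6, Tlr8, Tlr3 and Tlr9 were not called. A gene was called when its limma p, adjusted by Benjamini and Hochberg across the 17742 genes, was under 0.05 and the resistant array differed from each sensitive array by at least 1 on the log2(intensity + 50) scale, in the same direction. The resistant array was dimmer, with a median intensity of 24.9 against 58.4 and 72.5, and its bright probes lay 0.88 below the sensitive mean on the log2 scale. Calls were therefore made as deposited and again after scaling each array on its bright probes, and "rose" and "fell" below are kept for genes called in the same direction on both scales. As deposited, 3 of 9 receptors were called lower, against 18.5% of all genes, and 1 was called higher, against 5.23% of all genes. After scaling 2 of 9 were called lower (7.77% of all genes) and 1 higher (11.0% of all genes). On both scales 2 of 9 fell (7.61% of all genes) and 1 rose (5.22% of all genes). These are small counts, and no test of the list was made. The median log2 difference of the 9 receptors was -0.62, beside -0.33 over all genes, and -0.57 beside -0.01 after scaling. These receptor medians are the values of Tlr1 as deposited and of Tlr3, a probe with signal close to 0, after scaling.

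**Figure D1:**
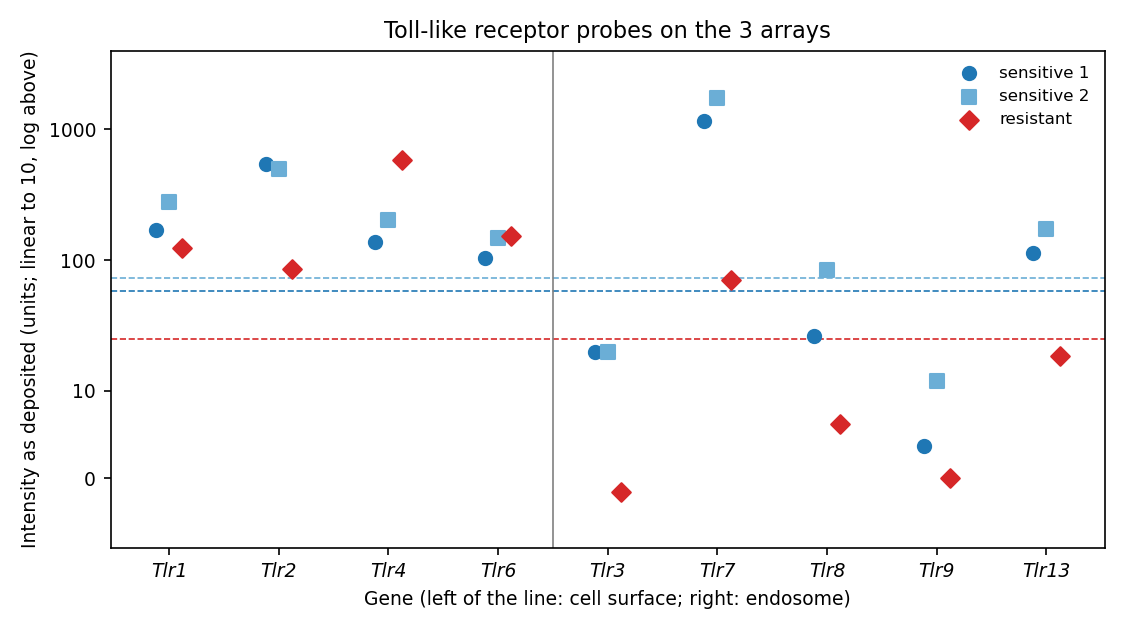
Intensity as deposited for each of 9 Toll-like receptor probes (y axis, linear to 10 and logarithmic above) on the sensitive arrays (blue circle and square) and the resistant array (red diamond); dashed lines are the medians of all probes on each array. The resistant array is lowest for Tlr7, Tlr2 and Tlr13, highest for Tlr4, and every array reads below 20 for Tlr3 and Tlr9.

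Promoter sequence was taken from the RefSeq table of build GRCm38.p6, which held an entry for 7 of the 9 receptors measured and none for Tlr4 or Tlr7. The Tlr13 window, the 250 bases before its annotated start, is shown because Tlr13 was lower on the deposited scale, chrX:106143025-106143274 on the plus strand. For Tlr2 (chr3:83841761-83841790, minus strand), which fell, and Tlr8 (chrX:167264389-167264418, minus strand), a neighbour of Tlr7 on the X chromosome, 30 bases around a match are shown. Capitals mark matches to a motif, and each line runs 5′ to 3′ along the gene.
Tlr13: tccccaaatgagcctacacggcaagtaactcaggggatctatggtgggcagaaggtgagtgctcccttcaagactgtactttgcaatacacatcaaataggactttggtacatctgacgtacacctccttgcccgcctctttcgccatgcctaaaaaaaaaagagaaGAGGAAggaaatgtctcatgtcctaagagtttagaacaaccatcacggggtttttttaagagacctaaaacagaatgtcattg
Tlr2: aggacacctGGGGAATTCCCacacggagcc
Tlr8: tataaatgacttTTCCTCtgaattcagttt

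Both strands of the 250 bases before each start were searched for 3 motifs. The Tlr2 capitals are overlapping matches to the NF-kB motif that end 162 bases before the start, and 7.25% of 32851 such windows held a match. An NF-kB match also lay 201 bases before the start of Tlr3, which was not called. The PU.1 core GAGGAA was in 4 receptors, 77 bases before the start of Tlr13 and, on the other strand, 71 bases before that of Tlr8. It also lay 106 bases before the start of Tlr9 and 17 before an annotated start of Tlr1. The window of another annotated Tlr1 start held no match. That core was in 23.3% of all windows, so its presence is common. The AP-1 motif TGANTCA was in 6.75% of windows, among them that of Tlr9. Each match is a description of the letters and was not tested as a binding site.

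Tlr7, the endosomal receptor for single-stranded RNA and imidazoquinoline drugs, changed most. Its probe read 1158 and 1737 units in B117P and 70.0 in B117HS. The resistant value lay far below both sensitive values. The resistant array was below both for 68.4% of all genes, so the lack of overlap alone says little. The sensitive mean of 1447 ± 410 (SD, n = 2) was 20.7 times the resistant value. Tlr7 fell by 3.61 on the log2 scale (SE 0.27, limma adjusted p = 9.73e-07) and by 3.04 after scaling, and 0.817% of all genes had a difference as low or lower. Tlr8, the adjacent and most similar receptor gene, read 26.1 and 84.4 in B117P and 6.22 in B117HS. The sensitive arrays differed from each other by 3.24 times for Tlr8, and its difference of -0.85 (SE 0.29, limma adjusted p = 0.028) fell short of the size asked from sensitive replicate 1.

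None of the other endosomal receptors was called on both scales. Tlr13, which binds bacterial ribosomal RNA, read 113 and 174 in B117P and 18.7 in B117HS, so the resistant array lay below both. Its difference was -1.48 as deposited (SE 0.30, limma adjusted p = 0.0017), which passed the call, and -1.18 after scaling on bright probes, where the difference from sensitive replicate 1 was -0.97 and the call was lost; it passed (-1.22, limma adjusted p = 0.046) when bright probes were chosen on the mean of the 3 arrays. Tlr3, the receptor for double-stranded RNA, read 19.9, 19.8 and -1.56 on the arrays in the order sensitive 1, sensitive 2 and resistant. Tlr9, the receptor for CpG DNA, read 3.73, 11.9 and 0 in the same order. Both were under the array medians throughout, and their log2 differences of -0.53 and -0.21 rest on signals close to 0. With an offset of 16 in place of 50, Tlr3 differed by -1.31 and was called lower (limma adjusted p = 0.0035). The resistant array was below both sensitive arrays for 5 of 5 endosomal receptors, as it was for 68.4% of all genes.

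Cell surface receptors split. Tlr2, the lipopeptide receptor that pairs with Tlr1 or Tlr6, read 548 and 495 in B117P and 85.6 in B117HS. The sensitive arrays were close together and the resistant array was well below them. Tlr2 fell by 2.07 on the log2 scale (SE 0.27, limma adjusted p = 6.45e-05) and by 1.46 after scaling. Its partners were not called. Tlr1 read 169 and 280 in B117P and 124 in B117HS, with a difference of -0.62 (SE 0.33, limma adjusted p = 0.13) that became 0.06 after scaling. Tlr6 read 104 and 148 in B117P and 152 in B117HS, a difference of 0.21 (SE 0.31, limma adjusted p = 0.60) that was 0.92 after scaling, where it missed the call. The resistant value was under both sensitive values for Tlr1, with a log2 difference of -0.33 from replicate 1 and -0.92 from replicate 2, and over both for Tlr6.

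Tlr4, the lipopolysaccharide receptor, moved the other way. It read 137 and 204 in B117P and 583 in B117HS, above both. The resistant value was 3.42 times the sensitive mean of 171 ± 47.9 (SD, n = 2). Tlr4 rose by 1.54 on the log2 scale (SE 0.30, limma adjusted p = 0.0012) and by 2.37 after scaling. It was higher than each sensitive array in every scaling, offset and floor tried, but lost its call with a floor of 50 units in place of the offset (1.80, limma adjusted p = 0.18).

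**Figure D2:**
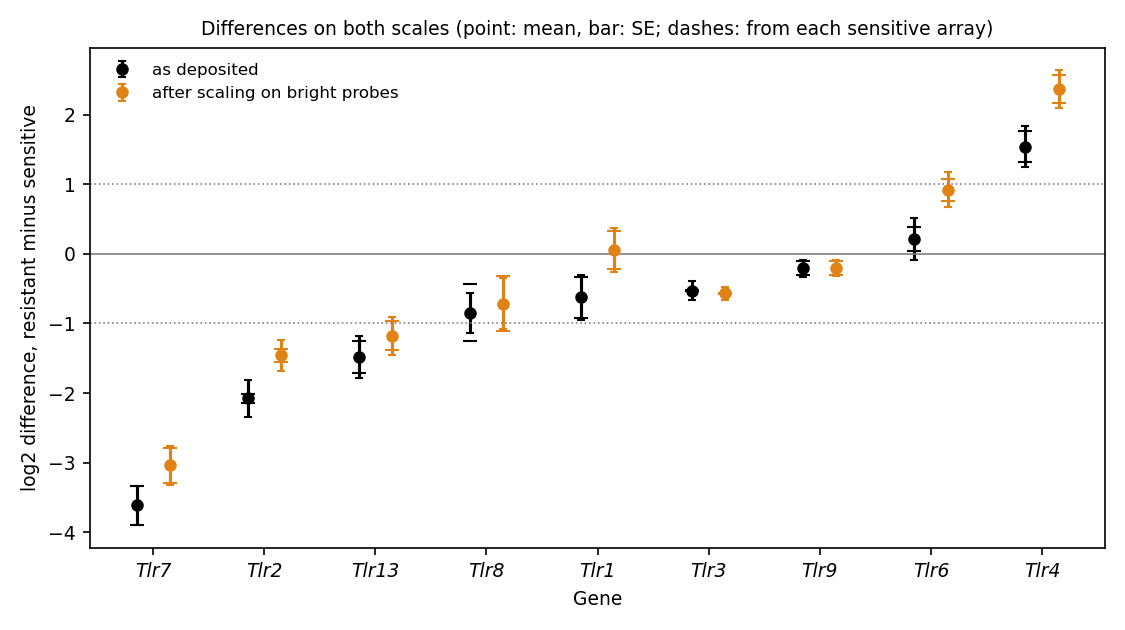
Log2 difference between the resistant array and the sensitive mean (y axis) for each receptor, as deposited (black) and after scaling on bright probes (orange); points are limma's difference, bars its SE, dashes the difference from each sensitive array, and dotted lines the size asked. Tlr7 (-3.61) and Tlr2 (-2.07) lie past -1 and Tlr4 (1.54) past 1 on both scales, Tlr13 straddles -1 after scaling, and Tlr1 crosses 0.

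The sensitive arrays were not alike in these genes. Sensitive replicate 2 was above replicate 1 for 7 of 9 receptors, the exceptions being Tlr2 and Tlr3, with a median log2 difference of 0.45. Over all genes replicate 2 was above replicate 1 for 65.0%, with a median of 0.08. Nothing in the labels says that these arrays came from separate cultures. The p-values therefore rest only on the spread between them, which may be technical. In the fit (1 residual degree of freedom, prior 11.0) that spread came mostly from genes of like intensity, not each gene's own values. The fit gives B117HS, with 1 array, the same spread. With no replicate of the resistant line, the number of arrays limits every value here.

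**Figure D3:**
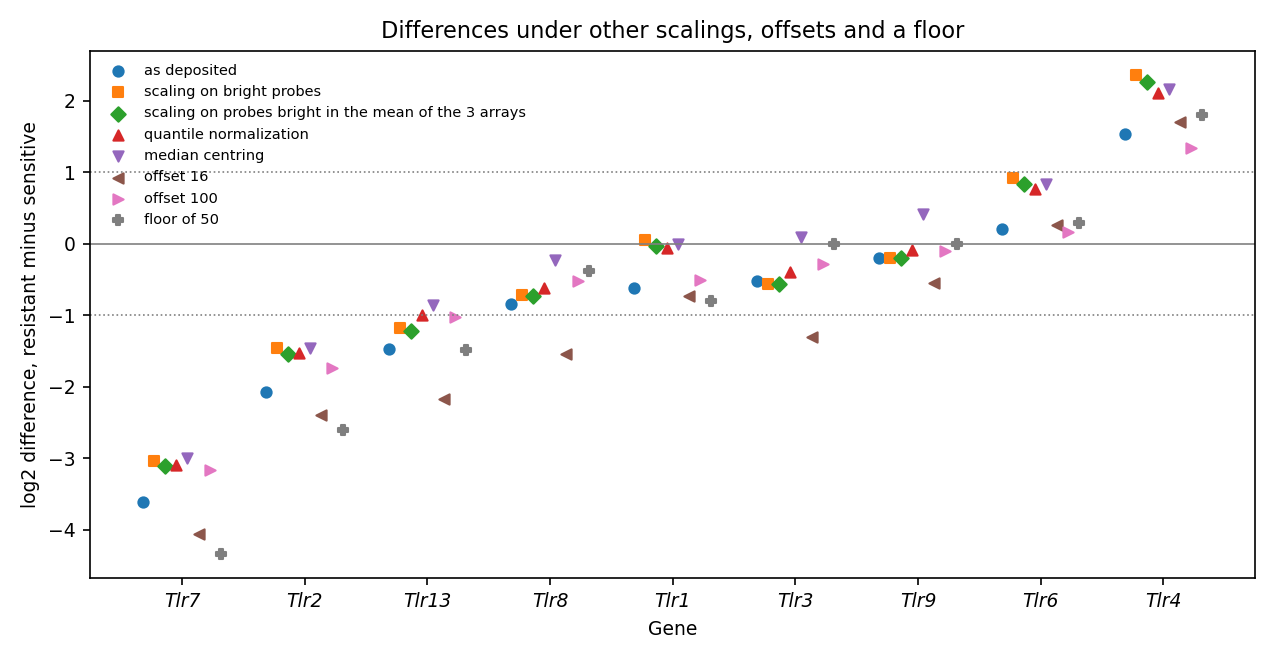
Log2 difference of each receptor (y axis) as deposited and under 7 other settings of scaling, offset and floor, one symbol per setting. Tlr7 stays between -4.34 and -2.99, Tlr2 between -2.61 and -1.45 and Tlr4 between 1.35 and 2.37, whereas Tlr1 runs from -0.80 to 0.06, Tlr3 from -1.31 with an offset of 16 to 0.09, and Tlr9 from -0.55 to 0.42.

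A further 3 Toll-like receptor genes outside the set were measured. Tlr12, which binds a profilin of Toxoplasma, read 123 and 132 in B117P and 7.78 in B117HS, and fell by 1.62 (SE 0.27, limma adjusted p = 0.00039). Its probe was near 0 in B117HS, and whether a spot had failed was not tested. Tlr5, the flagellin receptor, read 60.9, 87.1 and 35.8 (difference -0.52, limma adjusted p = 0.12), and Tlr11 read 21.1, 14.5 and 26.4 (0.17, limma adjusted p = 0.41), both in the order sensitive 1, sensitive 2 and resistant.

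Proteins that carry, cut and assist the receptors included several large falls. Of 13 measured genes of chaperones, co-receptors and endosomal processing, 5 fell and 1 rose, beside 7.61% and 5.22% of all genes. Their median difference was -0.50 as deposited, beside -0.33 over all genes, and -0.30 after scaling, beside -0.01. Slc15a3, an endolysosomal peptide and histidine transporter, fell from 8426 ± 3824 (SD, n = 2) to 174, by 5.16 on the log2 scale (SE 0.31, limma adjusted p = 1.58e-07). Lgmn and Ctss, lysosomal proteases known to cleave endosomal receptors, fell by 4.10 and fell by 3.87 respectively. Cd180, a relative of the receptors without a TIR domain, fell from 849 ± 34.7 to 34.2. Unc93b1, the chaperone that carries Tlr3, Tlr7, Tlr9 and Tlr13 to endosomes, was named after its values were seen. It read 2450 and 3364 in B117P and 411 in B117HS, a log2 difference of -2.66, and its other probes were lower on the resistant array too. Ctsb, another lysosomal protease, rose by 1.65. Cd14, which hands lipopolysaccharide to Tlr4, read 4556, 7712 and 9072 in the order sensitive 1, sensitive 2 and resistant (0.61, limma adjusted p = 0.083) and was called higher only after scaling (1.49). Hsp90b1, a chaperone needed to fold the receptors, differed by -0.50 on the deposited scale and by 0.38 on the scaled one.

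The remaining TIR-domain adaptors gave no call that held on both scales. Among 5 measured, 2 were called lower as deposited (18.5% of all genes) and 1 higher after scaling (11.0% of all genes). Ticam1, the adaptor of Tlr3 and Tlr4, read 501, 595 and 271 (difference -0.89, limma adjusted p = 0.012), and -0.12 after scaling. Tirap, which brings Myd88 to Tlr2 and Tlr4, read 308, 443 and 912 on its brighter probe (1.19, limma adjusted p = 0.0031) and 83.2, 120 and 21.8 on its other probe, so its probes disagree.

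Of 20 kinases and ligases below Myd88, 1 fell on both scales (7.61% of all genes), while 6 were called lower as deposited (18.5%). The list median of -0.70 became 0.03 after scaling, where members went both ways, from -2.07 for Map3k7 to 1.31 for Irak2. Map3k7, the kinase TAK1 that activates the NF-kB kinases, was the one that fell. It read 1188 ± 171 (SD, n = 2) in B117P and 132 in B117HS, a log2 difference of -2.76 with an SE of 0.24 (limma adjusted p = 3.34e-06). Irak1 and Irak2, kinases recruited by Myd88, differed by 0.26 and 0.54 as deposited and were called higher after scaling (1.12 and 1.31). The other Irak1 probes, at 933, 657 and 734 and at 502, 532 and 456, showed no rise as deposited. On that scale the chosen probe was not called either, and the other probes were not examined after scaling.

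Most interferon regulatory factors measured were lower in the resistant line. Of 8 measured, 5 fell on both scales (7.61% of all genes), with a median of -2.23 as deposited and -1.45 after scaling. Irf7 and Irf5, which act directly below Tlr7 and Tlr9, went from 661 and 1560 to 24.9 and from 749 and 787 to 37.3. Irf8, a factor of monocyte and dendritic cell identity, fell by 5.10 on the log2 scale (SE 0.25, limma adjusted p = 3.27e-08), and Irf3, which acts below Ticam1, fell by 2.31. Irf1 differed by -0.70 on the deposited scale and by 0.14 on the scaled one, and the Irf2 probe read 312 and -5.28 in B117P, so its sensitive arrays disagreed.

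Brakes on the pathway moved in both directions. Of 15 measured, 4 fell and 2 rose (7.61% and 5.22% of all genes), with a median of -1.05 as deposited and -0.28 after scaling. Sigirr, a decoy-like receptor that damps Toll-like and interleukin-1 receptors, rose from 235 ± 62.4 (SD, n = 2) to 2126, by 2.95 on the log2 scale (SE 0.27, limma adjusted p = 3.81e-06). Nfkbia, the inhibitor of NF-kB and one of its targets, fell by 3.61, Lgals9 fell by 2.44 and Irak3, an inactive Irak family member, fell by 2.29. Tollip and Otud7b differed by -0.13 and -0.22 as deposited and by 0.69 and 0.55 after scaling, without a call.

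Several genes that Toll-like receptors are known to induce fell. Of 25 measured, 10 fell on both scales (7.61% of all genes), with a median of -1.37 as deposited and -0.70 after scaling. The chemokine gene Ccl2 read 1501 and 4623 in B117P and 21.8 in B117HS. Icam1, an integrin ligand, fell from 1259 ± 194 (SD, n = 2) to 6.22, Acod1, which makes itaconate, from 405 and 1070 to -1.56, and Marcksl1 fell by 4.16 on the log2 scale. The other Acod1 probe read 109 and 257 in B117P and 6.22 in B117HS, so both were near 0 in the resistant line. The Icam1 probe was near 0 in B117HS too, and whether its spot had failed was not tested. Tnf read 147, 292 and 99.6 (difference -0.79, limma adjusted p = 0.083). Il1b read 226, 376 and 552 and was called higher only after scaling (0.81 as deposited, 1.64 scaled). This list also differed between the sensitive arrays, with replicate 2 higher by a median of 0.40.

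**Figure D4:**
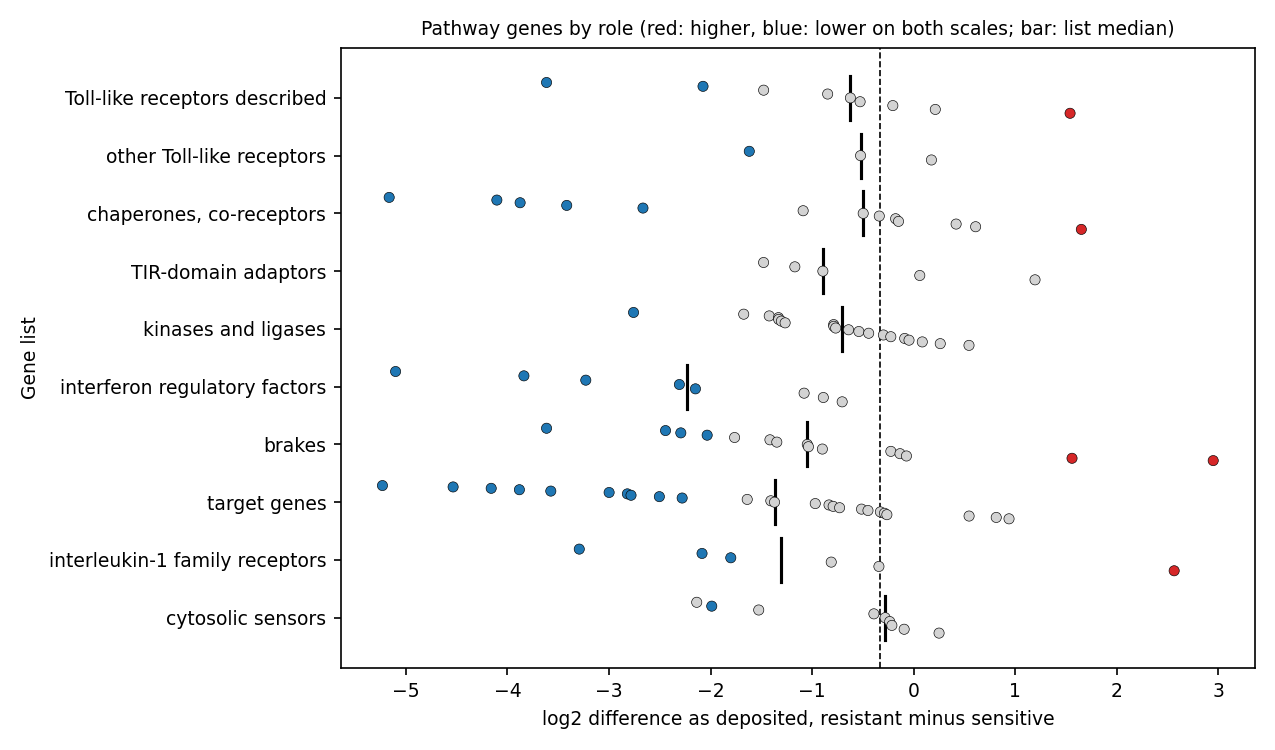
Log2 difference as deposited (x axis) of every measured gene in each list of the pathway, 1 point a gene, red where it rose and blue where it fell on both scales; black bars are list medians and the dashed line the median of all genes (-0.33). Interferon regulatory factors (median -2.23) and target genes (-1.37) lie furthest to the left, and kinases hold 1 blue point.

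Markers of blood lineages moved beside these genes, and their part in the results was not tested. Over all genes 7.61% fell and 5.22% rose, the shares to set beside the marker counts. Marker intensities and sums are given as deposited, the scale on which the resistant array was dimmer. Primary granule genes of the myeloid lineage were read on every array but did not move alike. Mpo read 76710, 84138 and 80905 and Prtn3 19231, 21137 and 20817 in the order sensitive 1, sensitive 2 and resistant. Elane rose from 272 and 350 in B117P to 11153 in B117HS, and Ctsg from 12900 and 12593 to 28196. Of 9 monocyte and macrophage markers, 4 fell and 1 rose, and their intensities summed to 26344 and 30385 in B117P and 11276 in B117HS. Cd14 alone gave 9072 of the resistant sum, and without it the sums were 21788 and 22673 against 2204. Of 9 neutrophil granule markers, 3 rose, namely Elane, Ctsg and S100a8, and 6 were not called on both scales. The sums were 109310 and 118581 against 141772, and without Mpo 32600 and 34444 against 60868. S100a8 read 17.4, 7.91 and 530 in the order sensitive 1, sensitive 2 and resistant, but S100a9 read 0, 9.23 and -4.67. Camp read 36.9 or less and Ngp 39.6 or less on every array. Plasmacytoid dendritic cells are rich in Tlr7 and Tlr9: of 7 of their markers 2 fell and 1, Bst2, rose, with sums of 10616 and 14855 against 23091, and Siglech read 72.1, 58.0 and -4.67. Bst2 alone gave 22526 of the resistant sum, and without it the direction turned, at 5970 and 4936 against 565. Among 7 conventional dendritic cell markers 3 fell (2615 and 2960 against 123), with Xcr1 and Clec9a at or below 10 throughout. In 6 B cell markers 2 fell and 1 rose (1933 and 2029 against 282), and Ms4a1 stayed between 4.97 and 7.78. T and NK cell markers gave 1 fall among 5 (sums of 1382 and 1341 against 272), with Cd4 at 13.7 or below. The 3 erythroid markers read low on every array, with sums of 93.2 and 91.0 against 52.9. Of 4 progenitor markers only Cd34 fell, from 10358 and 9186 to 1822, while Kit read 2728, 2236 and 2447. Progenitor sums were 13235 and 11526 against 4356. The median log2 difference of erythroid markers was -0.28 as deposited and 0.14 after scaling, and that of progenitor markers -0.22 and 0.17. That of neutrophil granule markers was 0.05 and 0.89, and the medians of the other marker lists were negative on both scales. In RNA from a whole culture, fewer cells of a type and less RNA per cell cannot be told apart.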

How the data were processed

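Per the labels' protocols, the amplified antisense RNA carried Cy5 alone, so the arrays are 1-colour. The authors deposited 1 table of intensity per probe and array, linear with values below 0, so a background had been subtracted. Scanner, software, scaling and genome build were not given in the sources used here, and no background or saturation flags were used. Of 26423 probes, 20377 had 1 platform symbol, 0 several and 6046 none; 18213 symbols matched a current gene of GRCm38.p6, 2126 an older name and 38 neither. Each of 17742 genes was represented by its brightest probe on average over the 3 arrays.

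An offset of 50 was added before log2, which understates the change of dim genes. The 3 arrays were fitted with limma 3.58.1 under R 4.3.3 (eBayes with a variance trend, 1 residual degree of freedom, prior 11.0). Bright probes were the 6019 that reached 500 units on each sensitive array. Values at most 10 units are called near 0. Alternatives were other scalings, offsets, a floor, filters on dim genes, probe averaging, variance models, call rules and the omission of either sensitive array; scaling on probes bright in the mean of 3 arrays, leaving out genes near 0 and marker sums without the brightest resistant marker were chosen after seeing the data. Members and lists were chosen with earlier results of these data known. Genes named were all members and, from each list, up to 4 called on both scales by size and the first 2 not called; Unc93b1, Ctsb and the markers named singly were added after their values were seen. The limma step was tested on simulated data, where 90.8% of changes of -1.5 and 99.8% of changes of -2 were called. A mean of 8.2 unchanged genes were called as well. Only genes above about 500 units were lowered, and the simulated arrays were equally bright. The simulation therefore does not cover dim receptors, rises or the dimmer resistant array. Every simulated array, the resistant one included, was given the spread of the sensitive arrays, so the number of unchanged genes called rests on that assumption. Other steps used Python 3.11.15, pandas 2.3.3, numpy 2.4.6 and matplotlib 3.10.9.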

Additional observations from a re-analysis of the deposited data

How the results depend on the processing

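No paired analysis was possible because only the sensitive arrays carry replicate numbers. Of 4212 genes called as deposited, 928 were higher and 3284 lower. Higher genes numbered 1954 after scaling on bright probes, 1752 after scaling on probes bright in the mean of the 3 arrays, 1697 after median centring, 133 with a floor of 50, 1566 by the adjusted p alone and 354 at a difference of 2. Lower genes numbered 1378, 1497, 1273, 26, 6935 and 734 in the same order, and 1201 after quantile normalization. Both directions gave 2535 after quantile normalization, 159 with the floor, 8501 by adjusted p alone and 1088 at a difference of 2. The share of higher genes among calls was 22.0% as deposited, 58.6% after scaling on bright probes, 52.6% after quantile normalization and 57.1% after centring. Without a sensitive array there are no residual degrees of freedom, so size alone counts: 4733 to 5264 genes and 4 to 5 receptors, Tlr8 being added without replicate 1 (-1.26).

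Of the receptors, 4 were called as deposited. With the floor limma called 0, 0 higher and 0 lower, with 2 at an unadjusted p under 0.05, and its adjusted p was 0.0739 for Tlr2, 0.0842 for Tlr7 and 0.22 for Tlr13. The trend fit there met zero variances, and 159 genes in all were called. A difference of 2 left 2 receptors, 0 of them higher, beside 734 of 17742 genes called lower. The adjusted p alone gave 5 lower, adding Tlr3 and Tlr8, beside 6935 of 17742 genes. An offset of 16 called 5, of them 4 lower, adding Tlr3 (-1.31, limma adjusted p = 0.0035), and called 4799 of 17742 genes lower. Tlr7 and Tlr2 were called lower and Tlr4 higher after each of 4 scalings. Tlr13 lost its call after scaling on bright probes, quantile normalization (-0.99), centring (-0.86) and with an offset of 100 (-1.03 on average), and kept it after scaling on probes bright in the mean of the 3 arrays (-1.22).

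Signs turned for genes that were not called. Scaling on bright probes gave 0.056 for Tlr1, 0.38 for Hsp90b1, 0.14 for Irf1, 0.69 for Tollip, 0.55 for Otud7b, 0.10 for Il1r2 and 0.73 for Mavs. Scaling on the mean of 3 arrays gave 0.27 for Hsp90b1, 0.031 for Irf1, 0.59 for Tollip, 0.46 for Otud7b, 0.039 for Il1r2 and 0.63 for Mavs. Quantile normalization gave 0.12 for Tlr5, 0.47 for Tollip, 0.38 for Otud7b, 0.30 for Il1r2 and 0.51 for Mavs. Centring gave 0.094 for Tlr3, 0.42 for Tlr9, 0.10 for Tlr5, 0.12 for Hsp90b1, 0.49 for Tollip, 0.40 for Otud7b, 0.28 for Il1r2, 0.41 for Ifih1 and 0.53 for Mavs. With 1 sensitive array left out, Irf2 ranged from -2.40 to 0.62 and Mavs from -0.26 to 0.071. The cause of these changes was not tested. Low signal limits Tlr3, Tlr8 and Tlr9 most.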

Other observations

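Receptors of the interleukin-1 family, which other than Il1r2 share Myd88 with the Toll-like receptors through the same TIR domain, also split. Of 6 measured, 3 fell and 1 rose on both scales, beside 7.61% and 5.22% of all genes. Il18r1 and Il18rap, the chains of the interleukin-18 receptor, fell by 3.29 and 2.08 on the log2 scale, and Il1r1, the signalling interleukin-1 receptor, fell by 1.80. Il1rap, the accessory chain of several of these receptors, rose from 114 and 136 to 983, by 2.56 (SE 0.28, limma adjusted p = 1.63e-05). A further Il1rap probe rose from 67.1 and 71.2 to 473, while the last read between 2.64 and 6.22. Il1rl2 and Il1r2 differed by -0.81 and -0.34 and were not called.

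Cytosolic sensors of nucleic acid and muropeptide gave 1 call on both scales. Of 9 measured, 1 fell on both scales (7.61% of all genes), and as deposited 3 were called lower (18.5% of all genes). Cgas, the cytosolic DNA sensor, read 1898 and 1829 in B117P and 432 in B117HS, a fall of 1.99 (SE 0.21, limma adjusted p = 1.60e-05). Mavs, the adaptor of the cytosolic RNA sensors, read 544, 696 and 574, and Ifih1 read 17.4 or less on every array.

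Among 5181 genes that reached 500 units on each sensitive array, those whose centred log2 values over the 3 arrays lay nearest to Tlr7 were Klhdc4, Cdkn2a and Fgd2, at Euclidean distances of 0.15, 0.15 and 0.17. Cdkn2a, which encodes cell cycle inhibitors, read 778 and 1008 in B117P and 26.4 in B117HS. With 3 arrays this is a description of how far a gene fell and of the gap between the sensitive arrays.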
